A study of Homo sapiens with 6 samples.

Results

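The mRNA levels of 10 genes of the G1 phase machinery were examined in Kasumi-1 cells incubated with or without I3. They are the D-type cyclin genes CCND1, CCND2 and CCND3, the kinase genes CDK4 and CDK6, and the inhibitor genes CDKN1A, CDKN1B, CDKN2A, CDKN2C and CDKN2D. These genes were chosen because the study examined arrest of the cell cycle at G0/G1. Each was matched by its Ensembl identifier, and all 10 were found among the 29810 genes of the deposited table. Kasumi-1 is a human acute myeloid leukemia (AML) cell line with the t(8;21) translocation, which creates the RUNX1-RUNX1T1 fusion. For 3 libraries the cells were incubated for 48 h with 0.25 μM I3, an inhibitor of histone deacetylases (HDACs), and for 3 control libraries they received no I3 over the same time. The methods give DMSO, the solvent of I3, as the control treatment. The labels number the libraries 1 to 3 in each group without saying whether they came from separate cultures on separate days, so the p-values measure the spread between these libraries.

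In G1 phase, D-type cyclins bind CDK4 or CDK6, and the active kinases phosphorylate the retinoblastoma protein and its relatives. This releases E2F transcription factors, which turn on the genes of S phase, and cyclin E with CDK2 then completes the passage. Inhibitors of the INK4 family, encoded by CDKN2A, CDKN2C, CDKN2D and CDKN2B, bind CDK4 and CDK6 themselves, whereas those of the Cip/Kip family, encoded by CDKN1A (p21), CDKN1B (p27) and CDKN1C (p57), bind complexes of cyclins and CDKs. CDKN1A is widely known as a gene that HDAC inhibitors induce, in many cases without p53.

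The level of an mRNA is given as FPKM, the number of fragments divided by the length of the gene and by the total of the library. The depth was 17500317 to 18193370 reads per library, as rebuilt from the FPKM values. In library I3 1, for example, 1 read on 1 kb of exon equalled 0.0561 FPKM. The identity of the cells was checked with markers. MPO, the peroxidase of myeloid granules, had a mean of 8106 FPKM over the 6 libraries and was the most abundant of the 7 markers of the line, all of which had a mean of at least 0.5 FPKM. RUNX1T1, which blood cells hardly express without the fusion, had 16.5, 14.1 and 14.7 FPKM in control 1, 2 and 3 and 16.5, 14.9 and 17.0 FPKM in I3 1, 2 and 3.

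Markers of other cell types were low, with exceptions. Of 8 monocyte markers in the table, 4 had a mean of at least 0.5 FPKM and S100A8 was listed at 0 in each library, while the monocyte antigen gene CD14 had a value above 0 in control 3 alone. The summed level of the monocyte markers was 18.5 to 27.4 FPKM per library, and lysozyme (LYZ) was the most abundant of them. Of 6 T and B cell markers, 2 reached 0.5 FPKM, with CD79B as the most abundant (mean 4.97 FPKM) and a summed level of 6.22 to 7.96 FPKM. CD79B had 4.87, 5.81 and 6.10 FPKM in control 1, 2 and 3 and 3.94, 4.19 and 4.89 FPKM in I3 1, 2 and 3 (limma, log2 fold change -0.33, unadjusted p = 0.0185, adjusted p = 0.868). It was the only one of the markers tested at an unadjusted p under 0.05, beside 4.93% of the 12960 tested genes. Its part in the results was not tested. EPCAM had 28.2 to 31.6 FPKM, whereas the other 4 epithelial and fibroblast markers summed to at most 0.0642 FPKM in any library.

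The 10 genes fell into an abundant and a scarce class. CDK6 was the most abundant, with a mean of 81.3 ± 9.24 FPKM (SD, n = 6) over all libraries. It was followed by CDKN1B with 49.6 ± 4.93 FPKM, CDKN2C with 49.4 ± 2.92 FPKM, CDK4 with 43.0 ± 3.56 FPKM and CCND2 with 29.2 ± 2.65 FPKM. The remaining genes had much lower levels, with 3.89 ± 0.794 FPKM for CDKN2A, 2.36 ± 0.255 FPKM for CCND3, 1.66 ± 0.285 FPKM for CDKN2D, 1.41 ± 0.405 FPKM for CDKN1A and 0.634 ± 0.199 FPKM for CCND1. Each of the 10 genes passed the minimum mean of 0.5 FPKM that was set for testing. CDK6 ranked above 96.9% of the 12960 tested genes, while CCND1 ranked above 5.46% of them.

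Not all neighbours in this order could be told apart. The ranges of CDKN1B and CDKN2C over the 6 libraries overlapped, and each was the higher of the pair in 3 libraries. CDKN2C lay above CDK4 in 6 of 6 libraries, although their ranges overlapped. The ranges also overlapped for CCND3 and CDKN2D, for CDKN2D and CDKN1A, and for CDKN1A and CCND1, and the first of these pairs kept its order in all 6 libraries. The ranges of the other neighbours, CDK6 and CDKN1B, CDK4 and CCND2, CCND2 and CDKN2A, and CDKN2A and CCND3, did not overlap over the 6 libraries. An FPKM value also depends on the length used. The merged exons of CDKN2A are 3.37 times as long as its longest transcript, and with that transcript's length, a choice made after the lengths had been seen, its mean level would be 13.1 FPKM. CDK4 would then rise from the fourth to the second place, with 65.6 FPKM, and CDKN1B would fall to the fourth. CCND3, with merged exons 2.42 times as long as its longest transcript, would have 5.72 FPKM, and CDKN1A (1.90 FPKM) would stand above CDKN2D (1.75 FPKM).

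**Figure D1:**
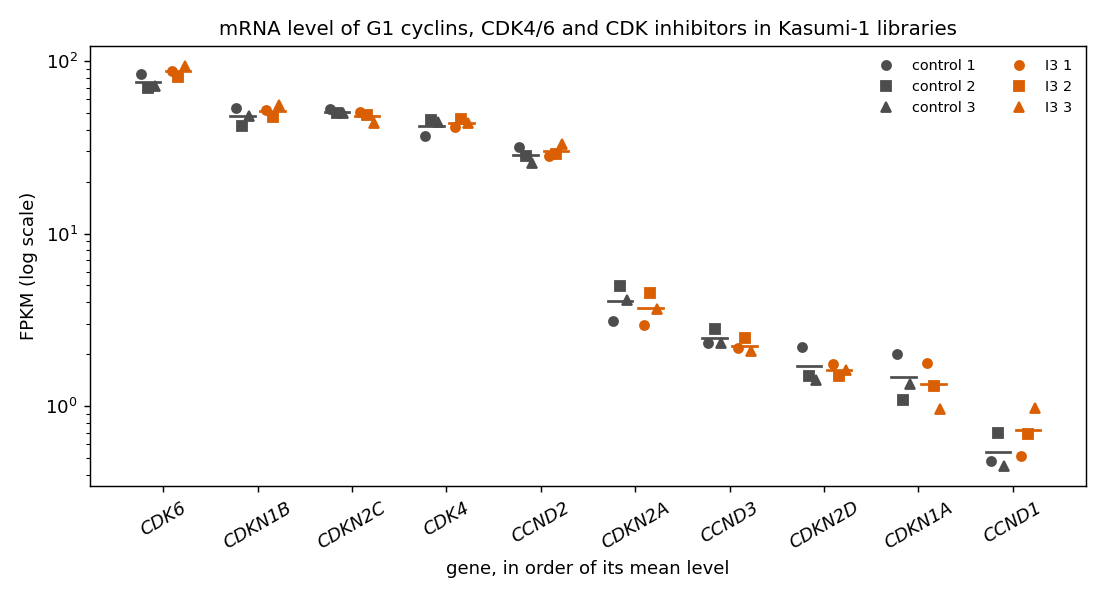
FPKM (log scale) of the 10 genes in each library, with control libraries in grey, I3 libraries in orange, a symbol for each replicate number and a bar at the mean of each group. CDK6, CDKN1B, CDKN2C, CDK4 and CCND2 sit above 25 FPKM in each library and the other 5 genes below 5 FPKM, and the groups overlap for each gene.

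The composition of each class was compared within libraries, since a ratio within a library does not depend on its scaling, although it does depend on the lengths of the genes. CCND2 made up most of the D-type cyclin mRNA, with 91.9%, 88.9% and 90.2% in control 1, 2 and 3 and 91.3%, 90.1% and 91.5% in I3 1, 2 and 3 (two-sided exact permutation p = 0.7). CCND3 had 5.78% to 8.86% and CCND1 had 1.40% to 2.72%. CDK6 made up 69.8%, 60.4% and 61.9% of the CDK4 and CDK6 mRNA in control cells and 67.8%, 63.6% and 68.2% after I3 (exact permutation p = 0.5). Control 1 held the highest share of CDK6 and control 2 the lowest, so the I3 libraries lay within the range of the controls. CDKN1B and CDKN2C shared the inhibitor mRNA almost evenly, with means over the 6 libraries of 46.8% and 46.7%. CDKN1A, the inhibitor known for induction by HDAC inhibitors, made up 0.904% to 1.77%. Of the 10 shares compared, each had groups that overlapped, and 0.3 was the smallest exact permutation p. With the lengths of the longest transcripts, an alternative chosen after the shares had been seen, CCND2 would have 80.4% to 85.6%, CCND3 11.9% to 17.6%, CDK6 51.3% to 61.5% and CDKN2A 7.88% to 13.8% of their classes. The groups overlapped for each share with these lengths too.

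**Figure D2:**
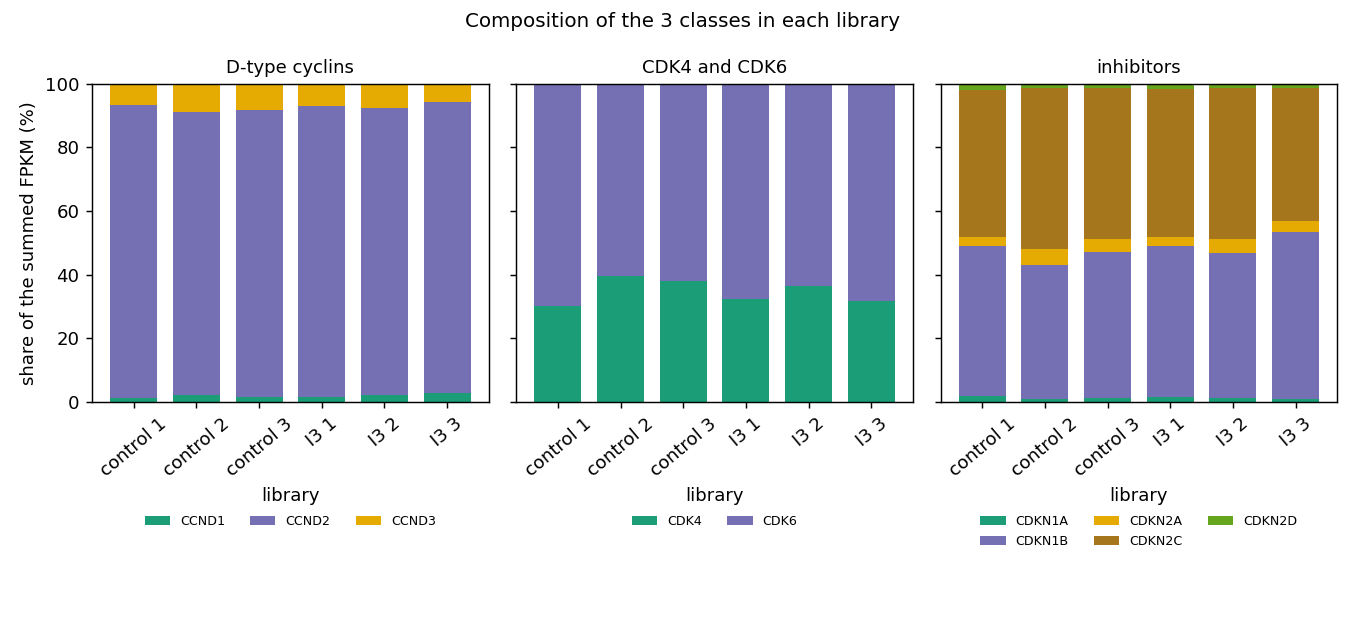
Share of each gene (percent) in the summed FPKM of the D-type cyclins, of CDK4 and CDK6, and of the 5 inhibitors, with 1 bar per library. CCND2, CDK6 and the pair of CDKN1B and CDKN2C form most of their classes in each library, from 88.9% to 91.9% for CCND2.

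The next comparison asked whether I3 changed the mRNA of these genes. None of the 10 genes passed both thresholds of the methods, which are 0.05 for the adjusted p and 0.58 for the log2 fold change, in limma with p-values adjusted by Benjamini-Hochberg over all 12960 tested genes. The background was 0%, since 0 of all tested genes passed. At an unadjusted p under 0.05, 1 of the 10 genes passed, against 4.93% of all tested genes (639 genes). It was CDK6, which was higher after I3, while 2.08% of all tested genes were higher and 2.85% were lower at this p. The groups overlapped for each of the 10 genes, whereas they did not overlap for 9.7% of all tested genes (5.06% higher and 4.64% lower after I3). The log2 fold change was above 0 for 5 of the 10 genes, beside 54.2% of all tested genes, and below 0 for the other 5, with a median of 0.013 beside 0.011 over all tested genes. The voom method of limma on the rebuilt reads also called 0 of its 13605 genes, with 662 at an unadjusted p under 0.05. In these bulk libraries a change in the share of cells in a phase of the cycle and a change of RNA per cell cannot be told apart.

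The kinases were examined first. CDK6 (ENSG00000105810) lies on the reverse strand of chromosome 7 of GRCh38 from 92604921 to 92836594. It had 84.5, 69.6 and 71.8 FPKM in control 1, 2 and 3 and 87.2, 81.1 and 93.7 FPKM in I3 1, 2 and 3. Control 1 lay above I3 2, and the other I3 libraries lay above each control. The control libraries had a mean of 75.3 ± 8.06 FPKM (SD, n = 3), and the I3 libraries had one of 87.3 ± 6.32 FPKM (SD, n = 3). This gave a log2 fold change of 0.22 with a standard error of 0.0890 and a 95% interval of 0.0065 to 0.42 (limma, unadjusted p = 0.0448, Benjamini-Hochberg adjusted p = 0.998). The exact permutation p was 0.2, where 3 against 3 libraries allow no less than 0.1. The unadjusted p depended on single libraries. It was 0.142 without control 2, 0.131 without control 3, 0.0921 without I3 1, 0.138 without I3 3 and 0.0307 without I3 2. Without control 1 it was 0.00486, with a log2 fold change of 0.30. In that fit 1417 of 12913 genes had an unadjusted p under 0.05. The unadjusted p of CDK6 was also above 0.05 without a minimum FPKM (0.0567) and without a trend in the variance model (0.0773). In all, it was at least 0.05 in 6 of 17 alternatives.

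CDK4 (ENSG00000135446) lies on the reverse strand of chromosome 12 from 57747727 to 57756013. It had 36.6, 45.7 and 44.1 FPKM in control 1, 2 and 3 and 41.5, 46.4 and 43.6 FPKM in I3 1, 2 and 3. Control 1 was the lowest library and I3 2 the highest, and the groups overlapped. Between the groups the log2 fold change was 0.061 (95% interval -0.15 to 0.28, adjusted p = 0.998 from limma), and without control 1 it turned to -0.036. It was 0.019 without I3 2, 0.12 without control 2, 0.097 without control 3, 0.099 without I3 1 and 0.091 with quantile normalization. Of the merged exons of CDK4, 43.2% overlap exons of TSPAN31 on the opposite strand, which had a mean of 1.56 FPKM. The sources used here do not say whether reads were counted by strand. The summed FPKM of CDK4 and CDK6 was 121, 115 and 116 in control 1, 2 and 3 and 129, 127 and 137 in I3 1, 2 and 3, and the groups of this sum did not overlap, as for 9.7% of all tested genes considered singly. It was 1 of 3 such sums and had an exact permutation p of 0.1, the smallest that 3 against 3 libraries allow. The sum of the D-type cyclins was 34.4, 31.6 and 28.3 FPKM in the controls and 31.0, 32.0 and 35.9 FPKM after I3, and that of the 5 inhibitors was 113, 99.5 and 105 FPKM and 109, 103 and 106 FPKM. Both of these overlapped between the groups (exact permutation p of 0.5 and 1).

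The D-type cyclins are the partners that bring CDK4 and CDK6 into activity. CCND2 (ENSG00000118971, chromosome 12 from 4273772 to 4305350) had 31.6, 28.1 and 25.5 FPKM in control 1, 2 and 3 and 28.3, 28.8 and 32.9 FPKM in I3 1, 2 and 3. Control 3 was the lowest library and I3 3 the highest, and the log2 fold change was 0.080 (95% interval -0.14 to 0.30). Single libraries moved it to 0.0062 without control 3, to 0.013 without I3 3, to 0.12 without I3 1 and to 0.16 without control 1. Of its merged exons, 13.8% overlap AC008012.1 on the same strand, a gene that was not analysed here. CCND3 (ENSG00000112576, chromosome 6 from 41934933 to 42050357) had 2.31, 2.80 and 2.31 FPKM in the controls and 2.18, 2.48 and 2.07 FPKM after I3. Its values overlapped between the groups, with a log2 fold change of -0.12 (95% interval -0.37 to 0.14) that was -0.039 without control 2, -0.071 without I3 3 and -0.18 without I3 2.

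CCND1 (ENSG00000110092, chromosome 11 from 69641087 to 69654474) was the scarcest of the 10 genes. It had 0.481, 0.698 and 0.450 FPKM in control 1, 2 and 3 and 0.511, 0.686 and 0.979 FPKM in I3 1, 2 and 3. I3 3 stood above the other libraries, which overlapped. The log2 fold change on the scale of log2(FPKM + 0.5), on which changes of scarce genes appear smaller, was 0.22 (95% interval -0.26 to 0.71, unadjusted p = 0.316), and without I3 3 it was 0.079. It was 0.35 without I3 1, 0.34 with a pseudocount of 0.1 FPKM and 0.39 with voom on the rebuilt reads. Of the merged exons of CCND1, 10.3% overlap LTO1 on the opposite strand, which had a mean of 3.17 FPKM, above that of CCND1, and the part of reads from LTO1 in these values was not tested. Behind these values lie 139 reads from the controls and 189 from the I3 libraries. Scaled by depth, their ratio was 1.34, and its exact binomial 95% interval of 1.07 to 1.68 covers counting error only.

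CDKN1A (ENSG00000124762) lies on chromosome 6 from 36676460 to 36687339. Its promoter is known for GC boxes near the start of transcription, the binding sites of Sp1, through which HDAC inhibitors act in other cells. The RefSeq promoter window of CDKN1A, which spans 250 bases before to 50 bases after the start, is shown because of this background. It is the plus strand of chr6:36678464-36678763 of GRCh38.p14, and capitals mark the matches of GGGCGG, of which it has 4, the last pair sharing a base.
CDKN1A: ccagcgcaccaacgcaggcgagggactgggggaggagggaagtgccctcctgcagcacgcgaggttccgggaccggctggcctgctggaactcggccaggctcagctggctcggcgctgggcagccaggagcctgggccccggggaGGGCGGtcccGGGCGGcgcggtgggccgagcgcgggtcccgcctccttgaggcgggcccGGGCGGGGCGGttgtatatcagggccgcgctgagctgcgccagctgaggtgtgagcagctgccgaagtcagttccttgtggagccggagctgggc
The letters GGGCGG were searched on both strands, and 45% of all 35116 promoter windows of this length held at least 1 match, while 9.06% held 4 or more.

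The mRNA of CDKN1A was scarce, and its values overlapped between the groups. It had 2.00, 1.09 and 1.35 FPKM in control 1, 2 and 3 and 1.78, 1.31 and 0.955 FPKM in I3 1, 2 and 3. Control 1 was the highest library and I3 3 the lowest. The control libraries averaged 1.48 ± 0.473 FPKM (SD, n = 3), whereas the I3 libraries averaged 1.35 ± 0.416 FPKM (SD, n = 3). In limma the log2 fold change was -0.097 with a standard error of 0.225 and a 95% interval of -0.62 to 0.43 (adjusted p = 0.998). The exact permutation p was 0.7. On the scale of FPKM + 0.5, the interval corresponds to a fold change between 0.649 and 1.35. The sign and this limit rested on single libraries. Without control 1 the log2 fold change was 0.086 and the upper bound was a fold change of 1.52, and without I3 3 they were 0.064 and 1.53. The log2 fold change was -0.24 without control 2, -0.26 without I3 1 and -0.063 with the GC trend removed. These values rest on 108, 59 and 72 reads in control 1, 2 and 3 and on 97, 71 and 53 reads in I3 1, 2 and 3.

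CDKN1B (ENSG00000111276, chromosome 12 from 12715058 to 12722371) encodes p27, which holds CDK2 inactive in resting cells. It had 53.5, 41.8 and 48.3 FPKM in control 1, 2 and 3 and 51.7, 47.1 and 55.5 FPKM in I3 1, 2 and 3. Control 2 was the lowest library and I3 3 the highest. Its log2 fold change was 0.11 (95% interval -0.13 to 0.34, unadjusted p = 0.328), with groups that overlapped. This value was 0.013 without control 2, 0.050 without I3 3, 0.17 without I3 2 and 0.19 without control 1. The protein p27 is mainly controlled by its degradation, which mRNA-seq does not measure.

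The INK4 inhibitors differed widely in level. CDKN2C (ENSG00000123080, chromosome 1 from 50960745 to 50974633), which encodes p18, had 52.5, 50.1 and 50.1 FPKM in control 1, 2 and 3 and 51.0, 48.9 and 44.0 FPKM in I3 1, 2 and 3. I3 3 was the lowest library, and I3 1 lay above controls 2 and 3. Its log2 fold change was -0.088 (95% interval -0.24 to 0.067, unadjusted p = 0.225). This interval was the narrowest of the 10 genes, yet the value was -0.027 without I3 3, -0.13 without I3 1 and -0.056 with quantile normalization. CDKN2D (ENSG00000129355, chromosome 19 from 10566462 to 10569059), which encodes p19, had 2.18, 1.495 and 1.41 FPKM in the controls and 1.75, 1.496 and 1.61 FPKM after I3. Control 1 was the highest library and control 3 the lowest, so all I3 values lay within the range of the controls. Its log2 fold change was -0.035 (95% interval -0.39 to 0.32) and turned to 0.12 without control 1, to 0.0074 without I3 2 and to 0.012 once the GC trend described further on was removed. It was -0.096 without control 2, -0.13 without control 3, -0.081 without I3 1 and -0.063 with quantile normalization.

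CDKN2A (ENSG00000147889) lies on the reverse strand of chromosome 9 from 21967753 to 21995301. It encodes p16 and, from another start and in another reading frame, ARF, a regulator of p53. The deposited value counts both kinds of transcript together. The RefSeq windows at these starts are shown to mark that they are separate promoters. The first is chr9:21995275-21995574, upstream in the gene and used by ARF, and the second is chr9:21974808-21975107, used by p16, each on the reverse strand of GRCh38.p14 with GGGCGG in capitals.
CDKN2A, ARF start: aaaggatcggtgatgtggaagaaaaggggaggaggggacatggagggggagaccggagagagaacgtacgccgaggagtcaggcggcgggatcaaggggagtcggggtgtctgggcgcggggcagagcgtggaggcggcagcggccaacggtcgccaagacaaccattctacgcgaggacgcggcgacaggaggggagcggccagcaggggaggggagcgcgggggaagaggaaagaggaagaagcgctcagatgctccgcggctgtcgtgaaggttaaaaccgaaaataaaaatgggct
CDKN2A, p16 start: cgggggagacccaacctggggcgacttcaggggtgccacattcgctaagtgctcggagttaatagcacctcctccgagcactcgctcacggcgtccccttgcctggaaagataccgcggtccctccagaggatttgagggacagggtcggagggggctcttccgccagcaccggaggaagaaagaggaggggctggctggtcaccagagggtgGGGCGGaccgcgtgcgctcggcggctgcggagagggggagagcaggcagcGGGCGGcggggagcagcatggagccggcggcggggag
The ARF window had 0 matches of GGGCGG and the p16 window had 2, which says only that these letters are or are not in the windows. RefSeq windows were found for 8 of the 10 genes (14 windows), of which 10 windows held GGGCGG. The E2F motifs TTTCGCGC, TTTGGCGC and TTTCCCGC, searched on both strands, were in 0 of these 14 windows and in 2.74% of all windows.

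CDKN2A had 3.11, 4.97 and 4.11 FPKM in control 1, 2 and 3 and 2.97, 4.54 and 3.66 FPKM in I3 1, 2 and 3. Control 2 was the highest library and I3 1 the lowest, and the groups overlapped. In limma the log2 fold change was -0.11 (95% interval -0.54 to 0.33, unadjusted p = 0.578), with 0.033 without control 2 and 0.026 without I3 1. It was -0.27 without control 1, -0.24 without I3 2 and -0.060 with the GC trend removed. Of its merged exons, 7.88% overlap CDKN2B-AS1 on the opposite strand, which had a mean of 0.00660 FPKM. CDKN2B, the INK4 gene next to it, had 1 read in control 3 and 1 read in I3 2 and was listed at 0 in the other libraries.

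The limits that these libraries place on a change differed between genes. The 95% interval of the log2 fold change lay within 0.58 in either direction for 8 of the 10 genes, compared with 81.6% of all tested genes. The exceptions were CDKN1A, with a lower bound of -0.62, and CCND1, with an upper bound of 0.71. With a library left out, 7 or 8 of the 10 intervals lay within 0.58, and CDKN2A was the gene added to the exceptions without control 1, control 3, I3 2 or I3 3. No share over all tested genes is given here for the fits with a library left out. Among these 8 genes are CDK6, for which the upper bound of 0.42 corresponds to a fold change of 1.34, and CDKN2C, for which the lower bound of -0.24 corresponds to a fold change of 0.845. An adjusted p that misses the threshold does not show that a level was the same.

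**Figure D3:**
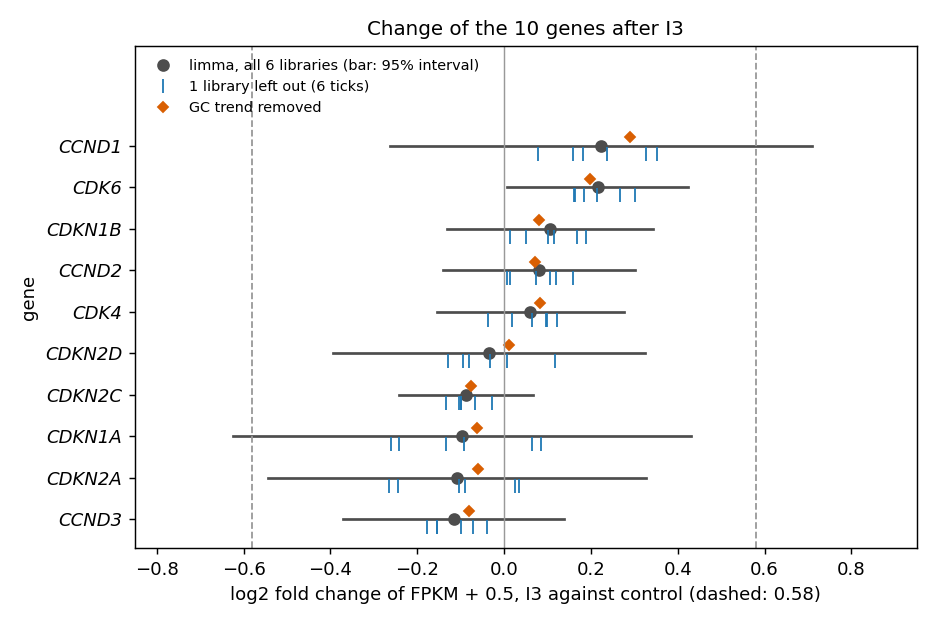
Log2 fold change of FPKM + 0.5 between I3 and control cells for the 10 genes, as the limma estimate with its 95% interval (grey), with 1 library left out at a time (blue ticks) and with the GC trend removed (orange), and dashed lines at 0.58 in either direction. The interval of CDK6 alone lies above 0, and those of CDKN1A and CCND1 cross a dashed line.

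The 10 genes also varied among the libraries of each group. The spread over the 6 libraries, as a coefficient of variation, was 5.90% for CDKN2C and 8.29% for CDK4, and it reached 28.6% for CDKN1A and 31.4% for CCND1. CDK6 and CDKN1B were highest in I3 3 and lowest in control 2, and CDKN2A was highest in control 2 and lowest in I3 1. Across the 6 libraries, which belong to 2 groups, the Pearson correlation of CDK6 with CDKN1B was 0.876, that of CDKN2A with CDK4 was 0.814 and that of CDKN2D with CDK4 was -0.949. Among the 45 pairs, the values of CDK6 with CDKN1B and of CDKN2D with CDK4 were the highest and the lowest, and with so few libraries they serve as a description only.

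The GC content of transcripts also differed among the 10 genes, from 46.4% in CDKN1B and 48.2% in CDK6 to 61.4% in CDKN2A and 63.7% in CCND1, beside a median of 49.3% over all tested genes. Libraries differed in how far GC-rich genes stood above or below their own means. Spearman's rho of these deviations with GC content, over 12939 genes, was 0.446 for control 2 and -0.446 for I3 3. Over the 10 genes, Pearson's r with GC content was positive for control 2 (0.595), I3 2 (0.398) and control 3 (0.0750), and it was negative for control 1 (-0.207), I3 1 (-0.365) and I3 3 (-0.264). When the trend was removed from each library, the range of CDKN2A over the libraries narrowed from 0.66 to 0.54 on the log2 scale, that of CCND3 from 0.36 to 0.22, that of CDK4 from 0.34 to 0.26 and that of CDKN1B from 0.40 to 0.34, whereas that of CDKN1A moved from 0.78 to 0.77. The ranges of CCND1 and CDKN2D widened, from 0.64 to 0.77 and from 0.49 to 0.55. The log2 fold change of CDK6 was 0.20 (unadjusted p = 0.0435) after this correction, and that of CCND1 was 0.29. In the corrected fit 763 of 12939 genes had an unadjusted p under 0.05.

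**Figure D4:**
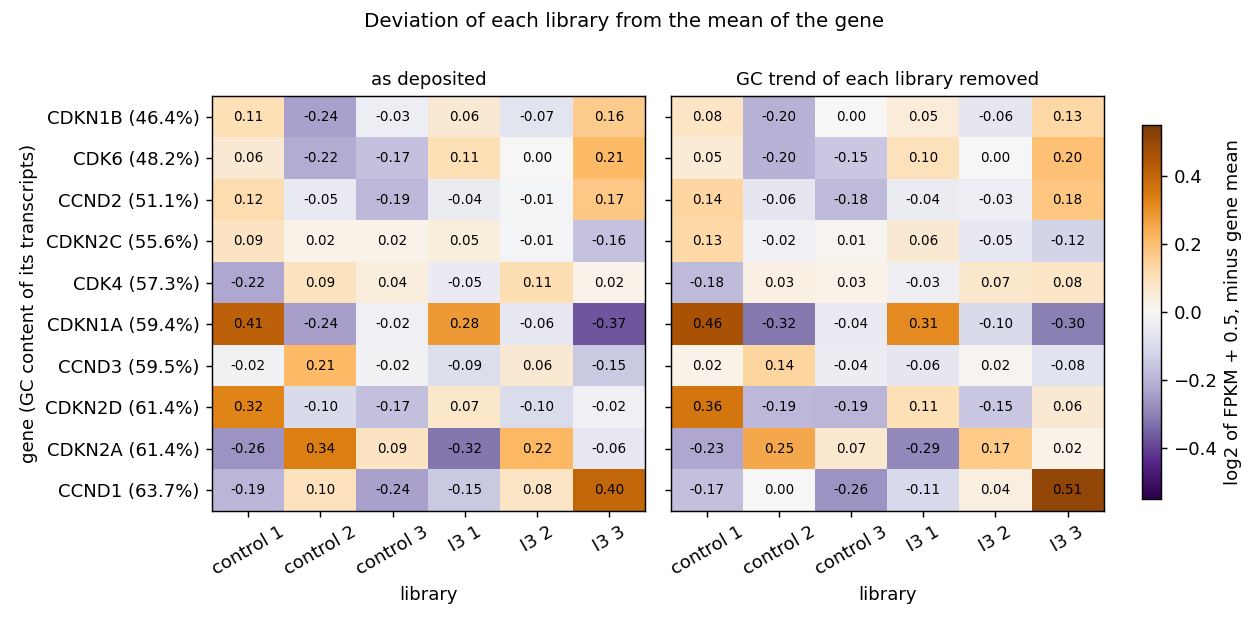
Deviation of each library from the mean of the gene (log2 of FPKM + 0.5, number and colour), with the 10 genes in order of the GC content of their transcripts, as deposited (left) and after removal of the GC trend of each library (right). CDKN1A is high in control 1 and I3 1 and low in control 2 and I3 3 in both panels, and the range of CDKN2A is narrower on the right.

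Genes whose levels followed those of a member most closely were named by Pearson's r over the 6 libraries, searched among genes that averaged at least 5 FPKM. For CDK6 they were MED21 (0.995), NAA50 (0.991) and DDX6 (0.991), for CDK4 they were ANKRD27 (0.999), NOC2L (0.992) and CXXC1 (0.99), and for CDKN1A they were COL9A2 (0.993), ARF6 (0.990) and SIRPA (0.986). With only 6 libraries such values are common, since 377 of 6641 genes had an r over 0.9 with CDK6 and 264 had one with CDK4. For CDKN1A this number was 37 of 6642.

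The partners and targets of the 10 genes were taken from 10 lists with 81 further genes, of which 76 were tested. None of the 76 genes passed the adjusted p in limma. At the unadjusted p under 0.05, 2 were higher and 3 were lower after I3, which is 6.58% beside 4.93% of all tested genes. The median log2 fold change was -0.0068, and the values ran from -0.29 to 0.22. These limits can move with a library left out, as CDKN1C was -0.45 without control 1. The 95% interval lay within 0.58 in either direction for 75 of the 76 genes, with CDKN1C as the exception, beside 81.6% of all tested genes.

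Among the pocket proteins, the substrates of CDK4 and CDK6, RBL1 (p107) had 6.48, 5.78 and 5.85 FPKM in control 1, 2 and 3 and 7.21, 6.40 and 7.83 FPKM in I3 1, 2 and 3. I3 2 lay below control 1, and the log2 fold change was 0.22 (unadjusted p = 0.0406). RB1 had a log2 fold change of 0.086 and RBL2 (p130) one of 0.039, each with groups that overlapped. RBL2 was 0.026 without control 2 and -0.012 with the GC trend removed. The value of RB1 depended on single libraries. It was 0.22 (unadjusted p = 0.0363 in limma) without control 1, where 1417 of 12913 genes had an unadjusted p under 0.05. It was 0.024 without control 2, 0.017 without control 3, 0.15 without I3 2 and 0.042 without I3 3. With the GC trend removed it was 0.022. At the unadjusted p, 1 of the 3 pocket protein genes was higher and 0 were lower, beside 2.08% and 2.85% of all tested genes. The unadjusted p of RBL1 was 0.112 without control 2, 0.108 without control 3, 0.0969 without I3 1, 0.136 without I3 3 and 0.0530 without a trend in the variance model.

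Of the 10 E2F and DP factor genes, 1 was higher and 1 was lower at the unadjusted p, beside 2.08% and 2.85% of all tested genes. In 3 of the 10 each I3 library lay above each control, and in 1 each lay below, beside 5.06% and 4.64% of all tested genes. E2F1, an activator of S phase genes, had 19.9, 23.8 and 20.8 FPKM in control 1, 2 and 3 and 18.8, 19.7 and 16.6 FPKM in I3 1, 2 and 3. Each I3 library lay below each control, by as little as the distance from 19.7 to 19.9 FPKM, and the log2 fold change was -0.22 (unadjusted p = 0.0436, exact permutation p = 0.1). E2F6, a repressor of the family, had 7.41, 7.10 and 7.43 FPKM in the controls and 7.93, 8.75 and 8.85 FPKM after I3. Each I3 library lay above each control, with a log2 fold change of 0.20 (unadjusted p = 0.0181, exact permutation p = 0.1). In limma the adjusted p was 0.998 for E2F1 and 0.868 for E2F6. The unadjusted p of E2F1 was 0.143 without control 2, 0.0687 without control 3, 0.0699 without I3 1 and 0.140 without I3 3, and it was 0.0572 with quantile normalization and 0.0689 without a trend in the variance model. For E2F6 it was 0.0588 without control 2, 0.0582 without I3 2 and 0.0632 without I3 3.

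MYBL2, which encodes B-Myb, a partner of the MuvB complex in S phase, had 96.0, 114 and 105 FPKM in control 1, 2 and 3 and 95.6, 84.7 and 79.9 FPKM in I3 1, 2 and 3. I3 1 came close to control 1, and the groups did not overlap, as for 9.7% of all tested genes. In limma the log2 fold change was -0.27 (unadjusted p = 0.0164, adjusted p = 0.862), and the unadjusted p was 0.0580 without control 2 and 0.0561 without I3 3. MYBL2 was the only one of 6 tested MuvB and DREAM genes at the unadjusted p, beside 4.93% of all tested genes. LIN54, with the next smallest p, had a log2 fold change of 0.14, which was 0.089 without control 2 and 0.085 with the GC trend removed.

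CDT1, a licensing factor of replication origins, was the only one of 20 E2F target genes of S phase entry at the unadjusted p. This count stands beside 4.93% of all tested genes. It had 45.3, 56.8 and 53.4 FPKM in control 1, 2 and 3 and 41.2, 45.9 and 39.4 FPKM in I3 1, 2 and 3. I3 2 lay above control 1, so the groups overlapped. In limma the log2 fold change was -0.29 (unadjusted p = 0.0186, adjusted p = 0.868). The unadjusted p was 0.0644 without control 2, 0.0595 without control 3, 0.0535 without I3 1 and 0.0623 without I3 3. The 20 genes had a median log2 fold change of -0.00029, with 10 above and 10 below 0, and TYMS had -0.16, which was -0.0079 without I3 3, -0.10 without control 1 and -0.29 without I3 1.

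MYBL2, CDT1 and E2F1 have GC-rich transcripts (60.2%, 65.3% and 62.5%), and RBL1 and E2F6 have GC-poor ones (40.7% and 44.6%). With the GC trend removed, log2 fold changes were -0.23 for MYBL2, -0.21 for CDT1, -0.17 for E2F1, 0.17 for RBL1 and 0.17 for E2F6. Each was closer to 0 than before the correction, and each kept an unadjusted p under 0.05, with 0.0296 for E2F6 as the highest.

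The other lists held no gene at the unadjusted p. Cyclin E, which acts with CDK2 after the D-type cyclins, had log2 fold changes of -0.14 for CCNE1 and 0.084 for CCNE2. That of CCNE1 was -0.030 without I3 3, and that of CCNE2 was -0.021 without control 3. In the same way, CCNE2 was 0.17 without control 2, 0.15 without I3 2, 0.050 without I3 1, 0.049 without I3 3 and 0.015 with the GC trend removed. CDK2 had -0.0046, a value near 0 that each left-out library moved, from -0.091 without control 2 to 0.12 without control 1. CDC25A, the phosphatase that activates it, had -0.078, which was -0.031 without I3 3 and -0.14 without I3 1. Of the 3 other inhibitor genes, CDKN1C averaged 0.613 ± 0.248 FPKM (SD, n = 3) in the controls and 0.425 ± 0.105 FPKM (SD, n = 3) in the I3 libraries, with groups that overlapped, and CDKN3 had a log2 fold change of -0.070. The value of CDKN3 was 0.0099 without control 3 and -0.031 without I3 3, and it was -0.11 without control 1, control 2 or I3 1 and with the GC trend removed.

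CCNH and MNAT1, partners of CDK7 in the CDK-activating kinase, had log2 fold changes of 0.12 and -0.049. The values of CCNH did not overlap between the groups, as for 1 of the 3 genes of this list and 9.7% of all tested genes. In limma its unadjusted p was 0.0761. That p was 0.0381 without control 1 and 0.0378 without a minimum FPKM, and with the GC trend removed the value of CCNH was 0.063 (unadjusted p = 0.336). Without control 1, 1417 of 12913 genes had an unadjusted p under 0.05, and without a minimum FPKM 1038 of 26609 did. MNAT1 ran from -0.13 without I3 3 to 0.055 without I3 1, with 0.0028 without control 1 and -0.080 without control 3, and was -0.12 with the GC trend removed. Of the genes for the turnover of cyclin D, p21 and p27, SKP2, which marks p27 for degradation, had 16.1, 16.2 and 15.8 FPKM in control 1, 2 and 3 and 17.0, 17.3 and 17.2 FPKM in I3 1, 2 and 3. These groups did not overlap, as for 1 of the 10 genes of this list and 9.7% of all tested genes. The log2 fold change of SKP2 was 0.095 (limma, unadjusted p = 0.101, and 0.0324 without a minimum FPKM). FBXO31, which marks cyclin D1 for degradation, had -0.18 (limma, unadjusted p = 0.0779, and 0.0393 without control 1).

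The 12 genes of G2 and M phase had a median log2 fold change of -0.029, and the cyclin B genes CCNB1 and CCNB2 had -0.064 and -0.076. CCNB1 was -0.042 without I3 3, -0.038 with quantile normalization and -0.096 with the GC trend removed, and CCNB2 was -0.048 without control 3 and -0.047 without I3 1. The 9 tested genes associated with quiescence, CDKN1B, CDKN1C and RBL2 among them, had a median of -0.026. The 6 reference genes ranged from -0.087 to 0.14.

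**Figure D5:**
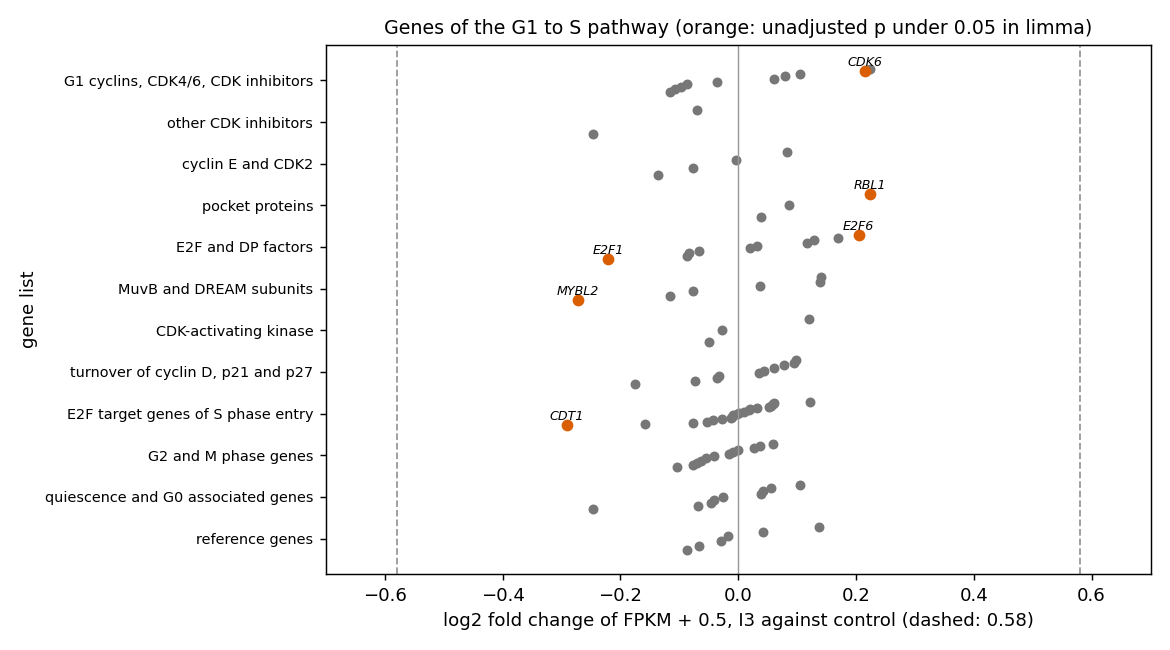
Log2 fold change of FPKM + 0.5 between I3 and control cells (points) for the 10 genes, the genes of 10 pathway lists and 6 reference genes, with dashed lines at 0.58 in either direction. The 6 genes at an unadjusted p under 0.05 (orange) are CDK6, RBL1, E2F6, E2F1, MYBL2 and CDT1, and each point lies between -0.30 and 0.30.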

How the data were processed

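mRNA-seq libraries of polyadenylated RNA were prepared by the authors with a stranded kit for 3 control and 3 I3 samples. The submitters' processing notes name Trimmomatic, HISAT2, HTSeq, Cufflinks and the build hg38, without versions or roles, and the sources used here do not give the annotation. The authors deposited FPKM values, 1 column per library. The name of the table gives the compound as I13, whereas its column headers and the labels give I3, and a figure legend of the study gives a longer incubation than the labels.

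The authors used DESeq, a count model. Since FPKM is not a count, limma 3.58.1 in R 4.3.3 (eBayes with trend, no covariates, two-sided) was applied to log2(FPKM + 0.5) of 12960 genes, those at or above a mean of 0.5 FPKM, with Benjamini-Hochberg adjustment over all of them. Positions and exon lengths came from GENCODE release 29 (29703 of 29810 genes matched). Multiplied by exon length, the values of 95.8% of the genes above 0 were whole reads within 0.1 read in each library, including all 10 members. Exact permutation tests used 3 against 3 libraries, and read ratios used exact binomial intervals in scipy 1.17.1. The GC trend was removed with lowess (span 0.3). Alternatives were other pseudocounts, minimums, scalings and variance models, the replicate block, voom on reads with a mean of at least 10, and each library left out. The fit was tested on simulated data of this comparison with 12960 genes, of which 100 were given a log2 change of 1 and 100 one of 2. It called 82% and 93% of these, and 6 unchanged genes. The noise was drawn separately for each gene, without the GC trend of the libraries, and smaller changes were not simulated. These shares therefore do not carry over to changes of the size seen in the members. Libraries of a group were no copies of each other (chi-square per degree of freedom at least 4.36).

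The members, gene lists and tests were chosen with earlier results of these data known. Named genes are the members, all genes of the lists of other inhibitors, cyclin E with CDK2, and pocket proteins, the 2 genes with the smallest unadjusted p of each other list, and the 3 genes most correlated with CDK4, CDK6 and CDKN1A. Genes named for their part in a check were added after their values were seen. Promoter windows are those of RefSeq. Listed genes without a row in the table were not analysed here.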

Additional observations from a re-analysis of the deposited data

How the results depend on the processing

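With each library left out in turn, 0 to 2 genes of all tested were called at the adjusted p, none of them a member (SNORD101 without control 1, CHCHD10 and EBPL without I3 1 and ENSG00000265982 without I3 2, named after their values were seen), and 0 were called in the 11 alternatives that kept all libraries. The genes at an unadjusted p under 0.05 numbered 1038 of 26609 without a minimum FPKM and 302 of 6642 with a minimum of 5 FPKM, as these test more or fewer genes, and 461 to 1417 with a library left out (1417 without control 1). Members at the unadjusted p numbered 0 without a minimum FPKM and 0 in eBayes without trend, and 0 to 1 with a library left out. The members' median log2 fold change was 0.080 with a minimum of 5 FPKM, which leaves 5 members, and -0.042 to 0.10 with a library left out (0.10 without control 1). With the GC trend removed it was 0.042, beside 0.0014 over all genes. With median-of-ratios scaling these medians were 0.0013 and -0.0011.

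Signs turned in a few genes, all with small changes. Removal of the GC trend gave 0.012 for CDKN2D and -0.012 for RBL2, and rescaling to TPM gave 0.0057 for CDK2. With a library left out, the log2 fold change ran from -0.26 to 0.086 for CDKN1A, -0.27 to 0.033 for CDKN2A, -0.13 to 0.12 for CDKN2D, -0.036 to 0.12 for CDK4, -0.11 to 0.0099 for CDKN3, -0.021 to 0.17 for CCNE2, -0.091 to 0.12 for CDK2 and -0.13 to 0.055 for MNAT1. The cause was not tested. CDK6 kept its sign in all 17 alternatives, from 0.16 to 0.30. The intervals of 7 to 10 of the 10 members lay within 0.58 in the alternatives that kept all libraries and all members. No share over all tested genes is given here for these alternatives.

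The replicate block called 0 genes, with 856 at the unadjusted p, and gave CDK6 an unadjusted p of 0.0316. The correlation of deviations between libraries of the same number was 0.0634, 0.151 and -0.0239 for numbers 1, 2 and 3. Control 2 correlated best with I3 2, whereas control 1 correlated best with I3 3 (0.101). These values do not show that the numbers pair the libraries. The fewest reads in control cells among the members were 135 for CDKN2D, 139 for CCND1 and 239 for CDKN1A, and how far depth limits their intervals was not tested.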
